A study of Mus musculus with 6 samples.

Results

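The transcripts described here are 10 ligands of the TGF-beta superfamily in whole mouse kidney: Tgfb1, Tgfb2, Tgfb3, Bmp2, Bmp4, Bmp6, Bmp7, Inhba, Inhbb and Gdf15. They were taken by gene symbol from a deposited expression table of 23873 genes, and all 10 were found. RNA came from kidneys of mice 8 weeks old, in 2 groups of 3 libraries. The first group was wild type by its labels, although the titles of its libraries begin with NICD, and whether these mice carried the allele without the driver is not given in the sources used here. The second, R26NICD2/+pax8cre, carried 1 copy of a Rosa26 allele for the Notch2 intracellular domain, the form of the receptor that acts on transcription without ligand. In the labels the driver is Pax8-Cre, active in renal tubule epithelium, while the title of the series has Pax-rtTA. The study, by its title, concerns Notch2 signalling in the growth of kidney cysts. Whether each library is a different animal is not stated, and the p-values below cover only the variation among these libraries, part of which may be technical.

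Ligands of this superfamily are secreted dimers that bring together type I and type II receptor kinases, which then phosphorylate Smad transcription factors. TGF-beta isoforms and activins act mainly through Smad2 and Smad3, and bone morphogenetic proteins (BMPs) through Smad1, Smad5 and Smad9. In kidney, TGF-beta is known for driving scar matrix, and BMP7 for nephron formation and for opposing TGF-beta in injured tubules. GDF15 is a distant member, induced by cell stress, whose receptor GFRAL sits in the hindbrain.

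Expression was given as FPKM, fragments scaled by transcript length and by library size, a unit that allows levels of different genes to be ordered. Steps between low FPKM values gave an estimated depth of 14600000 to 15100000 fragments per wild type library and 15500000 to 17800000 fragments per R26NICD2/+pax8cre library. Among all 13500 genes tested the median log2 fold change was 0.32 on FPKM as deposited and 0.02 after median-of-ratios scaling. Both values are therefore given for each ligand. A change is best read against the median of its own fit, 0.32 as deposited and 0.02 after scaling. Wild type replicate 1 stood apart. Its summed FPKM over 6 markers of adrenal cortex was 3673 against 1.39 to 1.63 in the other 5 libraries, where Nr5a1 was listed at 0, and over 7 adipocyte markers it was 4549 against 64.3 to 925.5. Values without this library are given wherever it decides a call. Proximal tubule markers were detected in all 6 libraries. The sum over 12 of these markers was 60768 to 93117 FPKM in wild type and 543 to 5330 FPKM in R26NICD2/+pax8cre. All 12 were lower, beside 16.2% of all genes tested. In bulk tissue, fewer cells of a type and less RNA per cell cannot be told apart.

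The ligand transcripts did not move as a block. The transcripts of the 3 TGF-beta isoforms, the activin subunit Inhbb, Gdf15 and Bmp6 were higher in R26NICD2/+pax8cre kidneys, while Bmp2, Bmp4 and Bmp7 were not called in either direction on FPKM as deposited. A gene was tested where at least 3 libraries reached 1 FPKM, and called where the adjusted p was under 0.05. Of the 9 ligands tested 6 were called higher and 0 lower with limma, in a table in which 45.1% of all genes tested were called higher and 16.2% lower. Tgfb2 entered the test only through its R26NICD2/+pax8cre libraries, and Inhba did not enter it. Tgfb3 and Inhbb reached 1 FPKM in only 1 wild type library, so their entry also depended on R26NICD2/+pax8cre. Without the filter all 10 were tested, and 7 were called higher and 0 lower, beside 32.6% and 12.2% of 19503 genes. After scaling 6 of the 9 were called higher and 1, Bmp7, lower, beside 28.7% and 25.7%, and with scaling and no filter 6 of the 10 were higher and 1 lower, beside 20.7% and 18.9%. Without wild type replicate 1 the count as deposited was 6 higher and 1 lower, beside 50.4% and 15.6% of 13182 genes, and with scaling as well 5 higher and 2 lower, beside 31.1% and 27.3%. The authors' deposited table, whose header names DESeq2, lists q under 0.05 for 7 ligands higher and 1 lower, beside 21.3% and 21.5% of 19439 genes. On FPKM as deposited the libraries of the groups did not overlap for 7 ligands higher and 1 lower, beside 39% and 16.5% of all genes with a value above 0.

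**Figure D1:**
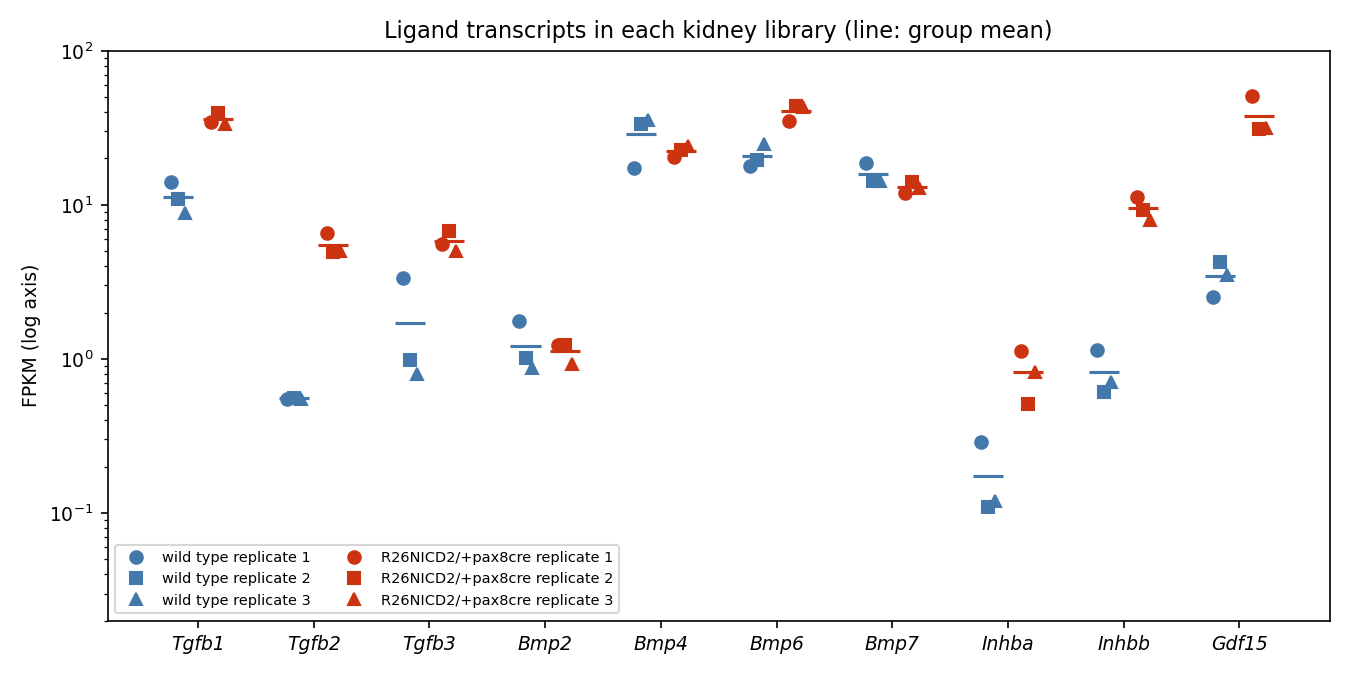
FPKM on a log axis for each of the 10 ligands in each library, with wild type in blue, R26NICD2/+pax8cre in red, replicates 1 to 3 as circles, squares and triangles, and a line at each group mean (n = 3). The groups are far apart for Gdf15, Inhbb and Tgfb2 and overlap for Bmp2 and Bmp4, and wild type replicate 1 lies away from the other wild type libraries for Tgfb3 (3.35 FPKM) and Bmp4 (17.27 FPKM).

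Of the 10 ligands 7 had promoter windows in the RefSeq table on GRCm38, in 8 windows, and the table held none for Tgfb3, Bmp2 and Bmp7. The 250 bases before the start site are shown for the 3 transcripts with the largest log2 fold changes on the log2(FPKM + 1) scale, Gdf15, Inhbb and Tgfb2, and for Bmp4, which was not called, as a contrast. For Tgfb2 the start site used is base 186705989, the bound of the gene in the GENCODE M21 annotation. The deposited locus given below runs on to 186709697, so this window lies inside it. For Gdf15 the start site used is base 70632456, and its window overlaps the deposited locus, which ends at 70632470. All are on the strand of the gene, 5′ to 3′, and capitals mark matches to the motifs searched on both strands: TGGGAA (the core of the site of RBPJ, the DNA-binding partner of Notch), TGA and TCA with any base between (AP-1), TGATGNAA (ATF4 with CHOP), GTCTAGAC (Smad), TATAAA (the core-promoter TATA box), CACGTG (E-box) and GGGCGG (GC box).
Inhbb, chr1:119422249-119422498, minus strand: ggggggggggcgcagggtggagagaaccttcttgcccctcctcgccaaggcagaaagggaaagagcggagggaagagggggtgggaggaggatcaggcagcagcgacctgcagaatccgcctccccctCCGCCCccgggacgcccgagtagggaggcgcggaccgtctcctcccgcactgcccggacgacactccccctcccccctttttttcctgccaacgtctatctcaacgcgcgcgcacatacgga
Tgfb2, chr1:186705990-186706239, minus strand: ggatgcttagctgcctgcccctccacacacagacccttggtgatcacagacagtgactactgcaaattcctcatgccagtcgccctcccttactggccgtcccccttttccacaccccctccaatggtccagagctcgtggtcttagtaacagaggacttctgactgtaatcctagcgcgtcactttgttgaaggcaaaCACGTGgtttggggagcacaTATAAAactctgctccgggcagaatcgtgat
Gdf15, chr8:70632457-70632706, minus strand: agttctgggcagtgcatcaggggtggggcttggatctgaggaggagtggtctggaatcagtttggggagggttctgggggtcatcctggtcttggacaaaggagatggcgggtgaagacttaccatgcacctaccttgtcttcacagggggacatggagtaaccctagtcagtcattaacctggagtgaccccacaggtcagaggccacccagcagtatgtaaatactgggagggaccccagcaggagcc
Bmp4, chr14:46390670-46390919, minus strand: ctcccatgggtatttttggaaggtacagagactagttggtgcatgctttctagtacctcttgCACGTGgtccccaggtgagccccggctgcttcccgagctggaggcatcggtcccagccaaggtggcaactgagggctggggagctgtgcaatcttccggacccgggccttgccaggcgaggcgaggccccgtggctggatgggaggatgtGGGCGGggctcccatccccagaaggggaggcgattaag
The windows of Gdf15, Inhbb and Tgfb2 hold no match to TGGGAA, which 21.6% of 32851 promoter windows of this length hold. Tgfb2 has a TATA box match at -31 to -26 and an E-box match at -51 to -46 from the start site, motifs held by 12.4% and 6.02% of windows; its window overlaps 1 exon of the antisense gene Gm29491. Inhbb holds 1 GC box match on the opposite strand, as 32.7% of windows hold at least 1, and Bmp4 holds an E-box and a GC box match. No motif searched was found in the Gdf15 window shown, and AP-1, ATF4 with CHOP and Smad matches, held by 6.75%, 3.45% and 0.167% of windows, were found in none of the 4. A second Gdf15 window, which lies over an exon and is not shown, holds a TGGGAA match on the opposite strand and an E-box match. A match describes these letters and is not evidence of binding.

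Transcripts of all 3 TGF-beta isoforms rose. Tgfb1 (gene 21803, chromosome 7, 25687002 to 25705077, plus strand), the isoform most studied in renal fibrosis, had levels of 13.98, 10.89 and 8.81 FPKM in wild type, replicates 1 to 3 in order, and of 34.61, 39.29 and 33.48 FPKM in R26NICD2/+pax8cre, an order kept throughout. The groups did not overlap. The mean rose from 11.2 ± 2.60 to 35.8 ± 3.08 FPKM (SD, n = 3 per group). On the log2 scale this was 1.61 (SE 0.17, adjusted p = 0.000332), or 1.27 after scaling (adjusted p = 0.000466). In the authors' deposited table its log2 fold change is 1.33 (q = 1.88e-13).

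Tgfb2 (gene 21808, chromosome 1, 186622787 to 186709697, minus strand), an isoform made by epithelia during development, was near silent in wild type, at 0.55, 0.56 and 0.55 FPKM, and stood at 6.53, 4.94 and 5.04 FPKM in R26NICD2/+pax8cre. The wild type libraries were nearly equal and all R26NICD2/+pax8cre libraries lay far above them, with replicate 1 highest. The mean rose 9.95-fold, or by log2 2.06 (adjusted p = 0.000297 without the filter, which it passed only through R26NICD2/+pax8cre; 1.84 after scaling, adjusted p = 0.000447). Because 1 FPKM is added before the logarithm, this scale understates changes of genes as low as Tgfb2, and the authors' deposited table lists 2.95 (q = 3.79e-35). A wild type value of 0.55 FPKM rested on about 71 to 74 fragments if the longest transcript of 8798 bases is taken as its length. In the GENCODE M21 annotation 2.14% of its exon bases also lie in exons of the antisense gene Gm29491.

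Tgfb3 (gene 21809, chromosome 12, 86056743 to 86079041, minus strand), the third isoform, stood at 3.35, 0.98 and 0.80 FPKM in wild type and at 5.53, 6.78 and 5.05 FPKM in R26NICD2/+pax8cre. Wild type replicate 1, the library with adrenal and fat transcripts, was above the other wild type libraries, yet below every R26NICD2/+pax8cre library. The mean rose 3.38-fold with all libraries and 6.50-fold without wild type replicate 1. The log2 fold change was 1.44 (SE 0.34, adjusted p = 0.00926, or 0.0199 without the filter), 1.20 after scaling, and 1.84 without that library (adjusted p = 0.000271). Without that library Tgfb3 passed the filter only through R26NICD2/+pax8cre. Within the summed FPKM of the 3 isoforms, Tgfb1 made up 78.2% to 87.6% in wild type and 74.2% to 77.02% in R26NICD2/+pax8cre. The share of Tgfb2 was 3.08% to 5.41% in wild type and 9.68% to 14.0% in R26NICD2/+pax8cre, with no overlap, while the share of Tgfb3 overlapped because wild type replicate 1 held 18.7%. These shares do not depend on the scaling between libraries.

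The transcript of the activin beta-B subunit rose and that of the beta-A subunit was low throughout. Inhbb (gene 16324, chromosome 1, 119415463 to 119422248, minus strand), whose product forms activin B as a homodimer and inhibin B with the alpha subunit, stood at 1.15, 0.61 and 0.71 FPKM in wild type and at 11.24, 9.24 and 7.95 FPKM in R26NICD2/+pax8cre. All R26NICD2/+pax8cre libraries lay above all wild type libraries, with the highest wild type value again in replicate 1. The mean rose from 0.823 ± 0.287 to 9.48 ± 1.66 FPKM (SD, n = 3 per group), 11.5-fold, or by log2 2.52 (SE 0.17, adjusted p = 8.7e-05, or 0.000365 without the filter) and 2.29 after scaling. The authors' deposited table lists a log2 fold change of 3.16 for it (q = 1.53e-30).

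Inhba (gene 16323, chromosome 13, 16004256 to 16031609, plus strand), which encodes the subunit of activin A, stood at 0.29, 0.11 and 0.12 FPKM in wild type and at 1.13, 0.51 and 0.82 FPKM in R26NICD2/+pax8cre. The groups did not overlap, but every value except 1 was under 1 FPKM and the gene therefore did not enter the filtered test. Without the filter its log2 fold change was 0.62 (SE 0.14, adjusted p = 0.0133), or 0.52 after scaling (adjusted p = 0.0205). The medians of all genes in these fits were 0.11 and -0.01. Without both the filter and wild type replicate 2 the adjusted p as deposited was 0.0506. The authors' deposited table lists 1.83 (q = 0.00107). Its longest transcript in the table is 14000 bases, beside 6390 exon bases in the GENCODE M21 annotation. If 14000 bases was the length used, the FPKM of Inhba is lowered by it, but the length used is not given in the sources used here. The inhibin alpha subunit Inha, which turns the beta subunits into the activin antagonist inhibin, stood at 5.23, 1.19 and 1.45 FPKM in wild type and at 4.51, 2.99 and 2.83 FPKM in R26NICD2/+pax8cre. The groups overlapped through wild type replicate 1 (adjusted p = 0.371), and without it Inha was called higher at 2.61-fold (adjusted p = 0.00708). Inha is known as an adrenocortical transcript, and the part of the adrenal RNA in the value of that library was not tested.

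Gdf15 showed the largest change among the 10 on the log2(FPKM + 1) scale, while by the ratio of means Inhbb, at 11.5-fold, was slightly above it. Gdf15 (gene 23886, chromosome 8, 70629393 to 70632470, minus strand) stood at 2.52, 4.24 and 3.52 FPKM in wild type and at 51.1, 31.0 and 31.6 FPKM in R26NICD2/+pax8cre. The groups were far apart, and R26NICD2/+pax8cre replicate 1 stood above the other two. The mean rose 11.1-fold, from 3.43 ± 0.864 to 37.9 ± 11.4 FPKM (SD, n = 3 per group), or by log2 3.12 (SE 0.24, adjusted p = 0.000109) and 2.80 after scaling. The authors' deposited table lists 3.05 (q = 2.29e-20). R26NICD2/+pax8cre replicate 1 was also the highest of its group for Inhbb, Inhba and Tgfb2. Markers of injured tubule were higher in R26NICD2/+pax8cre for 8 of 8, beside 45.1% of all genes tested. Their sums were 60.55 to 100.95 FPKM in wild type and 796 to 1507 FPKM in R26NICD2/+pax8cre. Replicate 1 had the largest of these sums, 1507 FPKM against 796 and 828 in replicates 2 and 3, and the smallest proximal tubule sum, 543 FPKM against 5330 and 1756. The part of these differences in the ligand levels was not tested.

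Among the BMPs, Bmp6 rose and the other 3 were level or lower. Bmp6 (gene 12161, chromosome 13, 38345716 to 38500314, plus strand), best known for controlling hepcidin and iron from liver endothelium, stood at 17.86, 19.61 and 24.81 FPKM in wild type and at 35.26, 43.59 and 43.15 FPKM in R26NICD2/+pax8cre. The groups did not overlap. The mean rose 1.96-fold, or by log2 0.94 (SE 0.15, adjusted p = 0.00179). After scaling the log2 fold change was 0.60 (adjusted p = 0.0353), and with scaling and without wild type replicate 1 it was 0.44 (adjusted p = 0.0674), so the call rests on that library once libraries are scaled. Of its exon bases 5.74% are shared with exons of Txndc5 on the opposite strand. Txndc5 itself rose from 43.5 ± 5.99 to 87.2 ± 5.73 FPKM (SD, n = 3 per group; adjusted p = 0.000674), and since no source states that strand was used in counting, reads from the shared bases cannot be assigned.

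Bmp7 (gene 12162, chromosome 2, 172868012 to 172940321, minus strand), needed for nephron progenitors and made by tubules and podocytes of the adult kidney, stood at 18.78, 14.30 and 14.19 FPKM in wild type and at 12.02, 14.10 and 12.90 FPKM in R26NICD2/+pax8cre. The groups did not overlap, though wild type replicates 2 and 3 and R26NICD2/+pax8cre replicate 2 were close together. On FPKM as deposited the log2 fold change of -0.25 did not pass (SE 0.14, adjusted p = 0.153). After scaling it was -0.58 and passed (adjusted p = 0.00518), and the authors' deposited table lists -0.61 (q = 0.00013). The call of Bmp7 thus depends on the scaling.

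Bmp4 (gene 12159, chromosome 14, 46383525 to 46390669, minus strand), a ligand of the stroma and of ureter growth, stood at 17.27, 33.70 and 35.46 FPKM in wild type and at 20.49, 22.54 and 24.04 FPKM in R26NICD2/+pax8cre. Wild type replicate 1 was the lowest library of all and the other wild type libraries were the highest, so the groups overlapped through that library alone. With all libraries the log2 fold change was -0.29 (SE 0.26, adjusted p = 0.374), or -0.63 after scaling (adjusted p = 0.133). Without wild type replicate 1 Bmp4 was called lower, at log2 -0.61 (adjusted p = 0.00314), or -1.01 with scaling as well (adjusted p = 0.000993). The authors' deposited table, which used all 6 libraries, lists -0.67 (q = 0.0818). Bmp2 (gene 12156, chromosome 2, 133552159 to 133562896, plus strand), an osteogenic BMP, was low in both groups, at 1.75, 1.01 and 0.87 FPKM in wild type and 1.24, 1.24 and 0.92 FPKM in R26NICD2/+pax8cre. Its libraries overlapped, with a log2 difference of -0.03 (SE 0.18, adjusted p = 0.883), or -0.22 after scaling (adjusted p = 0.297). On FPKM as deposited its sign turned, to 0.13 without wild type replicate 1 and to 0.04 without R26NICD2/+pax8cre replicate 3. A value of 0.87 to 1.75 FPKM rested on about 47 to 91 fragments.

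**Figure D2:**
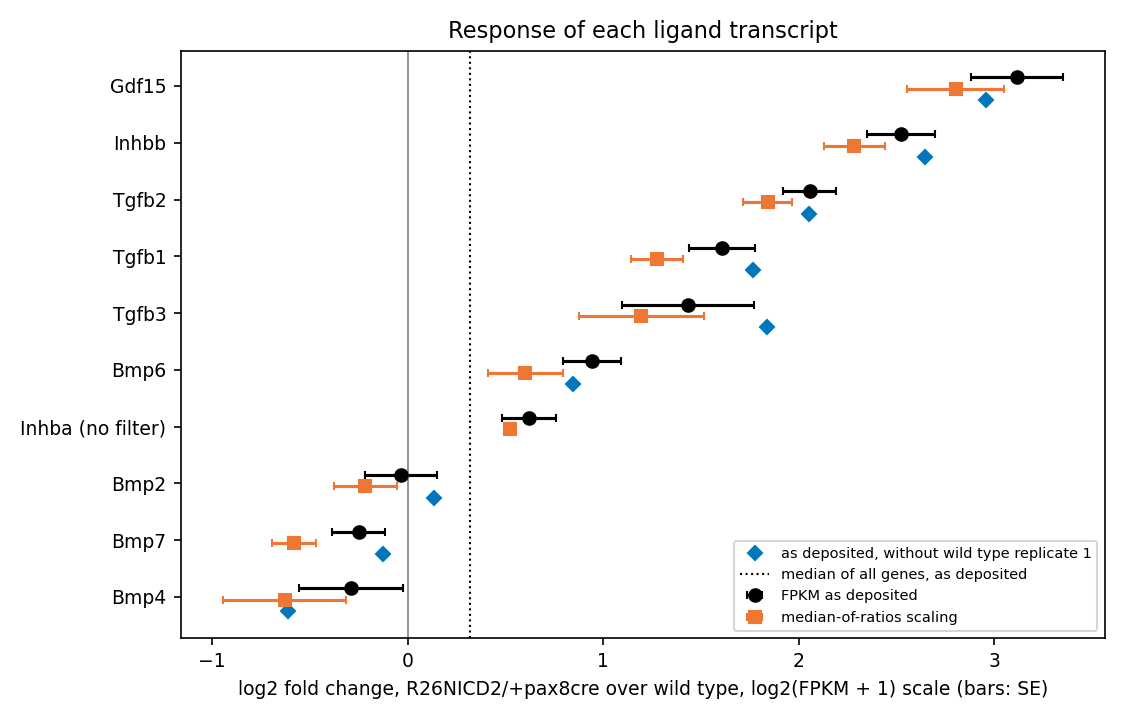
Log2 fold change of each ligand, R26NICD2/+pax8cre over wild type, on the log2(FPKM + 1) scale, for FPKM as deposited (black circles, bars SE), after median-of-ratios scaling (orange squares, bars SE, none for Inhba) and as deposited without wild type replicate 1 (blue diamonds, not drawn for Inhba); Inhba is from the fit without a filter, and the dotted line is the median of all genes, 0.32. Gdf15, Inhbb, Tgfb2, Tgfb1 and Tgfb3 lie above 1 in each of the 3, and Bmp7 and Bmp4 lie below 0 in each.

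The order of the ligands by level differed between the groups. In wild type Bmp4 had the highest mean (28.8 ± 10.03 FPKM), followed by Bmp6 (20.8 ± 3.61), Bmp7 (15.8 ± 2.62) and Tgfb1 (11.2 ± 2.60; SD, n = 3 per group). The libraries of Bmp4 and Bmp6 overlapped, as did those of Bmp6 and Bmp7, so these neighbours did not differ beyond their spread, although both overlaps rest on wild type replicate 1 and the other wild type libraries of the 3 genes did not overlap, whereas Tgfb1 lay below Bmp7 and above Gdf15 without overlap. Gdf15, Tgfb3, Bmp2 and Inhbb followed, each overlapping the next, then Tgfb2 and Inhba. In R26NICD2/+pax8cre the 3 most abundant were Bmp6 (40.7 ± 4.69 FPKM), Gdf15 (37.9 ± 11.4) and Tgfb1 (35.8 ± 3.08; SD, n = 3 per group), which overlapped one another in that order. Bmp4 and Bmp7 came next, each apart from its neighbours, then Inhbb, and Tgfb3 with Tgfb2, whose libraries overlapped. Bmp2 and Inhba were last and overlapped.

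Seen as shares of the summed FPKM of the 10, which no scaling between libraries changes, Bmp4 held less and Gdf15 more in R26NICD2/+pax8cre. The sum over the 10 was 77.5 to 89.8 FPKM in wild type and 164.9 to 179.1 FPKM in R26NICD2/+pax8cre. Bmp4 made up 22.3%, 39.2% and 39.5% of it in wild type and 11.4%, 13.01% and 14.6% in R26NICD2/+pax8cre. Gdf15 made up 3.25%, 4.93% and 3.92% in wild type and 28.5%, 17.9% and 19.2% in R26NICD2/+pax8cre. Neither pair of ranges overlapped. Because the sum was larger in R26NICD2/+pax8cre, the share of a ligand falls there even where its FPKM is unchanged. The share of Bmp7 was also lower, at 15.8% to 24.2% in wild type and 6.71% to 8.14% in R26NICD2/+pax8cre. The share of Bmp6 overlapped between the groups, at 22.8% to 27.6% in wild type and 19.7% to 26.2% in R26NICD2/+pax8cre. The ratio of summed Tgfb1, Tgfb2 and Tgfb3 to summed Bmp2, Bmp4, Bmp6 and Bmp7 was 0.321, 0.181 and 0.135 in wild type and 0.676, 0.626 and 0.538 in R26NICD2/+pax8cre. The ratio was chosen after the values were seen and is given as a description, with wild type replicate 1 the nearest to R26NICD2/+pax8cre. Among the BMPs alone, Bmp6 made up 28.6% to 32.9% in wild type and 51.1% to 53.5% in R26NICD2/+pax8cre.

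**Figure D3:**
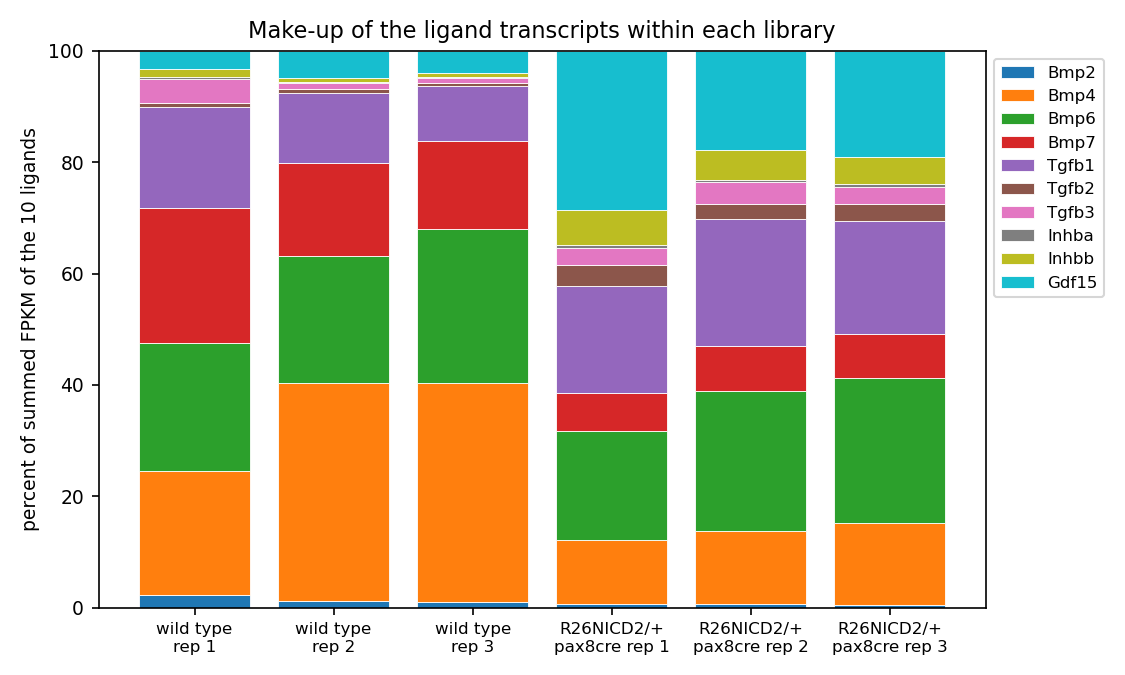
Percent of the summed FPKM of the 10 ligands taken by each ligand, as stacked bars from 0 to 100 for the 6 libraries. Bmp4 takes 22.3% to 39.5% in wild type and 11.4% to 14.6% in R26NICD2/+pax8cre, and Gdf15 takes 3.25% to 4.93% and 17.9% to 28.5%.

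The other genes of the pathway were read from 9 lists of 129 genes with values, of which 96 were tested; the lists share some genes. Counting each gene once, 53 were called higher, 16 lower and 27 did not pass, beside 45.1% and 16.2% of all genes tested, and after scaling 42 were higher and 21 lower, beside 28.7% and 25.7%. With each library left out in turn, all genes called higher numbered 4604 to 6644 and lower 1625 to 2062. Counts of the lists below on leaving out a library are best read beside these ranges. Few of the other superfamily ligands were expressed, and 4 of 20 with values were tested. Gdf6, a BMP of joint and eye patterning, went from 0.02 to 0.06 FPKM in wild type to 1.4 to 1.5 FPKM in R26NICD2/+pax8cre (adjusted p = 0.000168 without the filter). Gdf10, also known as BMP3B, fell 13.2-fold, from 9.43, 4.83 and 4.12 FPKM to 0.26, 0.57 and 0.56 FPKM (adjusted p = 0.00193 without the filter). Both passed the filter only through the group in which they were high, so neither was tested once a library of that group was left out. Gdf11 did not pass (adjusted p = 0.26).

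Of 14 receptors tested 6 were called higher and 3 lower, shares near the 45.1% and 16.2% of all genes, with a median log2 fold change of 0.30 beside 0.32 for all genes, and after scaling 2 were higher and 3 lower, beside 28.7% and 25.7%. Bmpr1b, a type I BMP receptor, rose from 1.72 ± 0.275 to 6.91 ± 2.46 FPKM (SD, n = 3 per group; adjusted p = 0.00133), and the BMP co-receptor Rgma rose 2.91-fold (adjusted p = 0.000717), and both also passed after scaling. Tgfbr1 and Tgfbr2, the signalling receptors of TGF-beta, were 1.59-fold and 1.62-fold higher (adjusted p = 0.0227 and 0.019). Neither passed after scaling (adjusted p = 0.226 and 0.0885). Tgfbr1 was also lost without wild type replicate 1 or 3 or R26NICD2/+pax8cre replicate 1 or 3 (adjusted p = 0.0538 to 0.0717), and Tgfbr2 without wild type replicate 2 or 3 or R26NICD2/+pax8cre replicate 1 or 2 (adjusted p = 0.0526 to 0.0639). Bmpr1a was 1.62-fold higher (adjusted p = 0.00749; 0.0862 after scaling). The activin and BMP type II receptors did not pass, with adjusted p = 0.724 for Bmpr2, 0.299 for Acvr2a and 0.183 for Acvr2b, although Acvr2a was called lower without R26NICD2/+pax8cre replicate 1 (adjusted p = 0.0185). The 3 receptors that fell were Tgfbr3, also called betaglycan, which presents TGF-beta2 to the signalling receptors (3.64-fold, adjusted p = 0.000961), and Eng and Acvrl1, known from endothelium (1.64-fold and 1.75-fold, adjusted p = 0.00184 and 0.0037). Of 8 endothelial markers 6 were lower and 0 higher, beside 16.2% and 45.1% of all genes. Their summed FPKM was 150.5 to 186.7 in wild type and 76.4 to 97.8 in R26NICD2/+pax8cre. The part of these markers in the fall of Eng and Acvrl1 was not tested.

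Of 7 Smad transcripts tested 6 were called higher and 0 lower, beside 45.1% and 16.2% of all genes, with a median log2 fold change of 0.78, and after scaling 5 were higher, beside 28.7%. Smad3 rose from 8.75 ± 1.30 to 20.9 ± 1.02 FPKM, and the inhibitory Smad7 from 6.82 ± 0.999 to 16.5 ± 1.56 FPKM (SD, n = 3 per group; adjusted p = 0.000378 and 0.000447). Smad2 rose 2.21-fold and the shared partner Smad4 1.80-fold. Smad6, the inhibitor that BMP signals induce, did not pass (3.92 ± 0.722 against 4.13 ± 0.517 FPKM, SD, n = 3 per group). Smad9, named after its values were seen, was low and did not enter the filtered test. It stood at 0.22 to 0.66 FPKM in wild type and 0.07 to 0.09 FPKM in R26NICD2/+pax8cre, and was lower without the filter (adjusted p = 0.0372). Among 11 intracellular modulators 4 were higher and 2 lower, near the shares of all genes (45.1% and 16.2%), and after scaling 4 and 4, beside 28.7% and 25.7%; 1 was lower without wild type replicate 1 or 2 or R26NICD2/+pax8cre replicate 2 or 3. The Smad corepressors Tgif1, Tgif2 and Ski rose 3.41-fold, 3.61-fold and 2.14-fold (adjusted p = 0.000153, 0.000563 and 0.000314), while Pmepa1, a TGF-beta-induced feedback inhibitor, fell 1.84-fold (adjusted p = 0.0128). Bambi, a decoy receptor, passed only after scaling (adjusted p = 0.2 as deposited, 0.0424 scaled).

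Latent TGF-beta needs release before it can bind. Of 15 genes of this step tested 8 were called higher and 5 lower, beside 45.1% and 16.2% of all genes, and after scaling 7 and 6, beside 28.7% and 25.7%, and 3 were lower without R26NICD2/+pax8cre replicate 3. Thbs1, the activator thrombospondin-1, stood at 11.71, 10.58 and 11.79 FPKM in wild type and at 34.56, 33.97 and 35.16 FPKM in R26NICD2/+pax8cre (adjusted p = 5.8e-05). Itgb6, which with Itgav forms the epithelial integrin that activates TGF-beta, rose 2.75-fold (adjusted p = 0.000895). Itgb8, an integrin subunit of the same list named after its values were seen, fell 2.21-fold (adjusted p = 0.0227, or 0.0124 after scaling). Ltbp2 stood at 2.09, 0.46 and 0.10 FPKM in wild type and at 3.84, 3.86 and 3.34 FPKM in R26NICD2/+pax8cre. Its mean rose 4.17-fold (adjusted p = 0.0118, or 0.0233 without the filter). Without wild type replicate 1 the rise was 13.1-fold, over a wild type mean of only 0.28 FPKM, and Ltbp2 passed the filter only through R26NICD2/+pax8cre. Ltbp1, a latent TGF-beta binding protein, fell 1.97-fold (adjusted p = 0.0107). Ltbp4, named after its values were seen, fell 2.60-fold (adjusted p = 0.00129, or 0.000693 after scaling). The proprotein convertase Pcsk6 fell 7.46-fold (adjusted p = 0.00156).

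Of 11 extracellular antagonists and binding proteins tested 6 were higher and 2 lower, near the 45.1% and 16.2% of all genes, and after scaling 4 and 3, near 28.7% and 25.7%. The largest rises were of Fstl1, a follistatin-like glycoprotein, from 18.1 ± 5.02 to 135.8 ± 14.1 FPKM, and of Gpc3, a cell-surface proteoglycan, from 19.1 ± 6.46 to 104.2 ± 13.7 FPKM (SD, n = 3 per group; adjusted p = 8.81e-05 and 0.000235). Neither is a classical ligand trap. Fstl3, which binds activins, rose 2.04-fold and Kcp, which binds BMPs and enhances their signal, 2.18-fold (adjusted p = 0.014 and 0.00279). The BMP antagonists Chrd and Sostdc1, named after their values were seen, fell from 2.11 ± 0.165 to 1.13 ± 0.0751 and from 42.5 ± 6.89 to 26.3 ± 2.09 FPKM (SD, n = 3 per group; adjusted p = 0.00658 and 0.00575), and both were also lower after scaling. Twsg1 and Crim1 of the same list, also named after their values were seen, rose 1.47-fold and 1.53-fold (adjusted p = 0.00846 and 0.00761). These 2 did not pass after scaling (adjusted p = 0.159 and 0.245). The antagonists Nog, Fst and Grem1 were low. Nog stood at 0.30 to 0.69 FPKM in wild type and 0.16 to 0.21 FPKM in R26NICD2/+pax8cre, Fst at 0.27 to 1.70 and 0.50 to 1.54 FPKM, and Grem1 at no more than 0.17 FPKM in any library, and none of these entered the test.

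**Figure D4:**
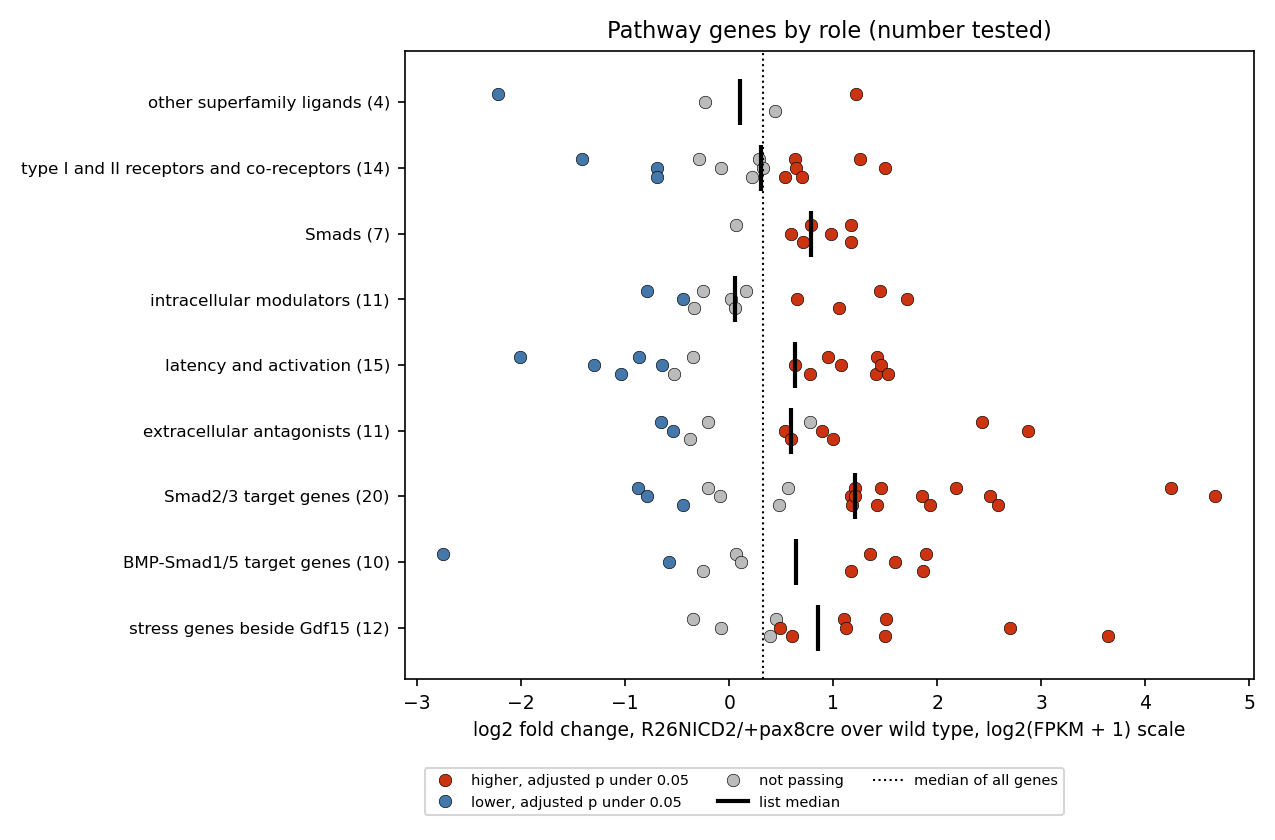
Log2 fold change on the log2(FPKM + 1) scale, R26NICD2/+pax8cre over wild type, of each tested gene in the 9 pathway lists (rows, number tested in brackets), coloured by call at an adjusted p of 0.05, with a black bar at each list median and a dotted line at the median of all genes, 0.32; vertical offsets within a row only separate points, and genes in several lists are drawn in each. The Smad2/3 target row has the highest median, 1.21, and the row of intracellular modulators the lowest, 0.05.

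Genes known as targets of Smad2 and Smad3 were mostly higher, although many are also induced by other signals. Like the other lists, this one was chosen with earlier results of these data known, so its counts are a description. It also shares a gene with the fibroblast markers given below. All 20 were tested, with 13 called higher and 3 lower, beside 45.1% and 16.2% of all genes, and a median log2 fold change of 1.21, and after scaling 13 and 3, beside 28.7% and 25.7%, with a median of 0.87. Timp1, a metalloprotease inhibitor, stood at 6.63, 0.45 and 0.62 FPKM in wild type and at 69.0, 60.8 and 67.6 FPKM in R26NICD2/+pax8cre, a 25.6-fold rise with all libraries and 123-fold without wild type replicate 1. Junb, an AP-1 subunit, rose 6.29-fold, Spp1, osteopontin, 18.95-fold and Tgfbi, a matrix protein named for its induction, 2.37-fold (adjusted p = 0.000507, 5.39e-05 and 0.00343). Ccn2, connective tissue growth factor, did not pass (adjusted p = 0.0751). Its groups overlapped through wild type replicate 3, without which it was called higher at 1.77-fold (adjusted p = 0.00592). The 3 members that fell include Pmepa1 and 2 others, Skil and Snai2, named here after their values were seen. Of 9 macrophage and dendritic cell markers 7 were higher, beside 45.1% of all genes. Their sums were 348.2 to 673.8 FPKM in wild type and 1450 to 1947 FPKM in R26NICD2/+pax8cre. Of 9 fibroblast, pericyte and smooth muscle markers 4 were higher and 2 lower, near the 45.1% and 16.2% of all genes. After scaling 3 were higher and 3 lower, beside 28.7% and 25.7%. The sums of this list were 143.0 to 262.6 FPKM in wild type and 285.2 to 334.0 FPKM in R26NICD2/+pax8cre. None of the markers in these lists was listed at 0 in a library, and their part in the ligand or target levels was not tested.

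Of 10 targets of BMP signals through Smad1 and Smad5 tested 5 were called higher and 2 lower, near the 45.1% and 16.2% of all genes, and after scaling 5 and 3, beside 28.7% and 25.7%; 1 was lower without wild type replicate 2 or R26NICD2/+pax8cre replicate 1 or 3. The inhibitors of differentiation Id1 and Id3 rose from 34.8 ± 2.58 to 130.0 ± 22.2 and from 42.1 ± 7.07 to 158.8 ± 21.1 FPKM (SD, n = 3 per group; adjusted p = 0.000122 and 0.000158), and Id4 rose 2.97-fold (adjusted p = 0.00864). Id2 did not pass (adjusted p = 0.728). Sgk1, a kinase also induced by aldosterone, fell 6.90-fold (adjusted p = 0.000185). Of 12 stress-response genes set beside Gdf15, 8 were called higher and 0 lower, beside 45.1% and 16.2% of all genes, and after scaling 5 and 1, beside 28.7% and 25.7%. Without R26NICD2/+pax8cre replicate 1, 5 were higher and 1 lower, and without R26NICD2/+pax8cre replicate 2 the counts were 5 and 0. Trib3 passed the filter only through R26NICD2/+pax8cre and was not tested in either. On leaving out each library, all genes called higher ranged from 4604 to 6644 and lower from 1625 to 2062, beside 6095 and 2190 with all libraries. Egr1 rose 14.0-fold and Atf3 10.4-fold, both immediate-early or stress-induced transcription factors (adjusted p = 0.000572 and 0.000475), and Trib3, a target of ATF4, 6.34-fold (adjusted p = 0.01 without the filter). Asns, asparagine synthetase, was 2.62-fold higher (adjusted p = 0.0322). Its call was lost after scaling (adjusted p = 0.0621) and on leaving out any library other than wild type replicate 1 (adjusted p = 0.0566 to 0.0971), without which it was 5.39-fold higher.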

How the data were processed

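RNA from whole kidneys was sequenced from TruSeq libraries of total RNA, per the labels' protocols. The deposited table gave FPKM per library and group means of FPKM, per the file headers, together with the authors' log2 fold changes, p-values and q-values from DESeq2. Bowtie 0.12.2 and mm8 appear in the submitters' processing notes, but of 21998 genes matched by ID to RefSeq on GRCm38, 88.2% had the same start and end in the deposited table, so positions are read as GRCm38. The counting tool is not given in the sources used here. Other annotation columns were used as deposited by the authors. Of 23873 rows 4370 held no values. Columns of single libraries that matched no sample numbered 0.

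The design planned for counts or FPKM was run on FPKM: limma 3.58.1 in R 4.3.3 with a mean-variance trend on log2(FPKM + 1), genotype as the only term, two-sided, Benjamini-Hochberg adjustment over the 13500 genes with at least 1 FPKM in at least 3 libraries. Standard errors are those of limma, and folds are ratios of mean FPKM. Scaling divided FPKM by median-of-ratios size factors. Depth was estimated from low FPKM of genes with a single transcript, where 63.7% to 69.0% of values up to 8 fragments lay within 0.15 of a whole number, and serves only to give precision. In simulated data on 13500 genes, 69% of 100 changes of log2 1 and 92% of 100 of log2 2 were called, with 6.4% of calls false. No other genes were changed and no shift between libraries was simulated. In the data themselves 45.1% of genes tested were called higher and 16.2% lower, so the simulated shares do not carry over to this contrast.

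The ligands and gene lists were chosen with earlier results of these data known. Pathway genes named in the text are, per list, up to 4 called genes with the largest absolute log2 fold change, and a fixed set of receptors, Smads, antagonists and targets. Others are marked as named after their values were seen. Alternatives were other pseudocounts, filters and scalings, the replicate number as a block, and each library left out. The result for 1 gene of the target list is not reported here.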

Additional observations from a re-analysis of the deposited data

How the results depend on the processing

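Tgfb1, Tgfb2, Tgfb3, Inhbb and Gdf15 kept their direction and call under every alternative run that tested them. A filter of 10 FPKM left fewer genes to test, with 3 ligands called higher, 3742 and 1439 of all genes higher and lower, and 6 pathway genes lower. Tgfb2, Tgfb3, Bmp2, Inhba and Inhbb did not reach 10 FPKM in 3 libraries and were not tested under it. The number of genes tested under this filter is not given, so these counts are not read as shares. Bmp7 was called lower with median-of-ratios scaling (log2 -0.58), quantile normalization (-0.62), upper quartile scaling (-0.55), scaling without a filter (-0.58) and the replicate block with scaling (-0.58), with 1 ligand lower in each. All genes called higher and lower numbered 3873 and 3473 with median-of-ratios scaling, 3866 and 3558 with quantile normalization (26 pathway genes lower), 3993 and 3387 with upper quartile scaling, and 4045 and 3693 with scaling and no filter (25 pathway genes lower). In that last fit, chosen after seeing the data, Bmp6 was not called at 0.60.

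With scaling and without wild type replicate 1 Bmp4 was -1.01, Bmp6 0.44 and Bmp7 -0.51, with 2 ligands, 3600 of all genes and 28 pathway genes lower. At an adjusted p of 0.01 10 pathway genes were lower. With calls limited to log2 changes of 1 or more in size, Bmp6, at 0.94, was not called, 2427 and 1009 of all genes were higher and lower, and 35 and 6 pathway genes. On leaving out each library, Bmp2 ranged from -0.14 to 0.13, Bmp4 from -0.61 to -0.11, Inhba without a filter from 0.50 to 0.75, and the ligands called lower from 0 to 1; Tgfb2 was not tested without a R26NICD2/+pax8cre library. The cause of these changes was not tested.

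Deviations from the group mean showed little correlation between same-numbered libraries (r = 0.095, -0.050 and 0.0056 across genes). The largest r was between libraries of different number, wild type replicate 2 and R26NICD2/+pax8cre replicate 3. Deviations within groups of 3 libraries cannot decide whether the numbers pair them. The authors' deposited table also holds comparisons of the same-numbered libraries, and no reason for this pairing is given in the sources used here. The replicate block alone changed no call of a ligand, and the replicate block with scaling gave 3606 and 3381 of all genes higher and lower. With 3 libraries a group, and few fragments behind Inhba, Tgfb2 and Bmp2 in wild type, small differences of these ligands were not detectable.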
